A study of Mus musculus with 5 samples.

Results

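The smooth muscle contractile genes examined here are 10 genes of the force-generating machinery and cytoskeleton of smooth muscle: Acta2, Myh11, Des, Cnn1, Actg2, Tagln, Lmod1, Mylk, Synm and Smtn. They were chosen by name, and all 10 are among the 23857 genes of the deposited table. Bulk RNA sequencing covered 5 libraries, each from 1 young adult female mouse, of YFP-positive cells sorted from the fallopian tube (oviduct). The 2 control mice, numbered 2 and 3, were Pdgfra-Cre;R26Y, where R26Y is the Rosa26-YFP reporter, and the 3 mice numbered 1, 2 and 3 were Pdgfra-Cre;Esr1(fl/fl);R26Y, in which both copies of Esr1, encoding estrogen receptor alpha, are floxed. Since the Pdgfra promoter of mesenchymal cells controls Cre, recombination takes place in cells that use or have used that promoter, and YFP marks the same cells. The comparison addresses what differs in these cells when Esr1 is deleted in them.

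In smooth muscle, force comes from filaments of smooth muscle myosin pulling on actin filaments after myosin light chain kinase, activated by a rise in calcium, has phosphorylated the light chains. Intermediate filaments and actin-binding proteins hold these filaments in register. The oviduct carries a muscle layer outside its stroma, whose contractions help to move gametes and embryos, and low amounts of several of these transcripts are also made by fibroblasts, myofibroblasts and the mural cells of vessels. Many of these genes are known targets of serum response factor, which binds a short DNA motif named the CArG box and acts there with its coactivator myocardin.

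Values are TPM, a relative abundance that corrects for transcript length and gives every library an equal total. Between 21402 and 22713 genes were above 0 and between 15841 and 19432 reached 1 TPM per library. TPM keeps no total depth, so the number of reads behind a value is unknown. The non-coding RNA Rpph1 alone took 18.6% and 21.3% of the total in control mice 2 and 3. Its share was 22.3%, 14.3% and 13.1% in knockout mice 1, 2 and 3, which leaves unequal room for all other genes. Esr1, read first as a check of the labels, had 83.3 and 77.6 TPM in control mice 2 and 3. The libraries labelled knockout had 28.9 TPM for mouse 1, 85.0 TPM for mouse 2 and 170 TPM for mouse 3, so the last pair goes against the label at the level of the whole gene. TPM per gene sums over all exons, and transcripts that lack only the floxed part would still count, so these values do not show whether that part was lost. "Knockout mouse" below means the library with that label. Fibroblast markers were abundant (Dcn 6764 to 10110 TPM, Col1a1 1389 to 3806 TPM). The libraries of knockout mice 2 and 3 stood apart in epithelial markers, a list of 10 genes with a summed level of 12121 and 13238 TPM there, 3096 and 3367 TPM in control mice 2 and 3, and 2175 TPM in knockout mouse 1. Most of that sum was Ovgp1, at 10655 and 11258 TPM in knockout mice 2 and 3, 2273 and 2463 TPM in the controls, and 1522 TPM in knockout mouse 1. Krt19, next by mean, had 330 and 545 TPM in knockout mice 2 and 3, 268 and 228 TPM in the controls, and 135 TPM in knockout mouse 1. All 10 epithelial markers lay above both controls in knockout mice 2 and 3, as did 34.8% of all tested genes.

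All 10 contractile genes were expressed in every library, and none differed between the groups past the threshold. Together they made up 787 and 577 TPM in control mice 2 and 3, against 690, 653 and 623 TPM in knockout mice 1, 2 and 3. The groups overlapped in this sum, and the controls marked both its ends. In bulk samples, fewer cells of a type and less RNA per cell cannot be told apart, which holds for every level below. Of the 10 genes, all of which passed the filter on low values, 0 had an adjusted p under 0.05 (limma), where 0.0259% of the 19292 tested genes did. At an unadjusted p under 0.05 there were 2 (Synm and Smtn), against 13.6% of all tested genes. The median log2 fold change of the 10 genes was 0.053, with 6 positive and 4 negative, and that of all tested genes was -0.022. Without knockout mouse 1, 0 of the 10 passed as higher and 1, Des, as lower, where 5.35% and 2.63% of all tested genes did, and the median was -0.059. Each fit without knockout mouse 1 leaves out the library with the lowest Esr1 (28.9 TPM). The knockout mice it keeps, 2 and 3, had Esr1 at 85.0 and 170 TPM, above both controls. In that comparison 1 of 10 lay above and 3 below both controls, where 34.8% and 27.9% of all tested genes did.

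**Figure D1:**
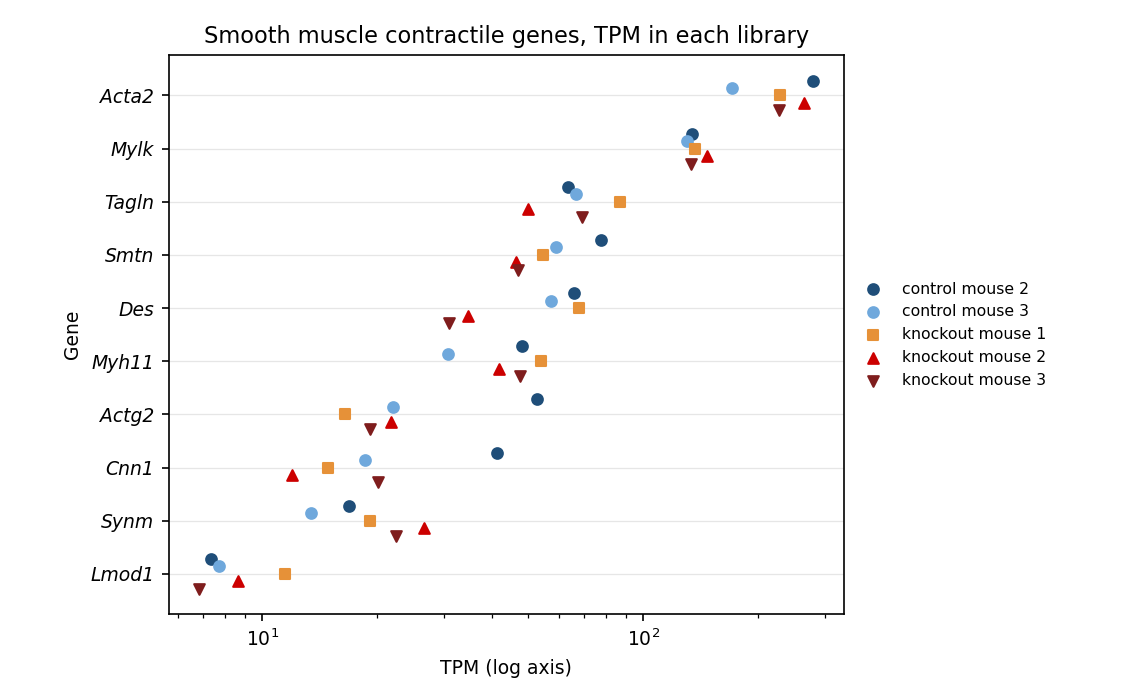
Level of each of the 10 genes (TPM, log axis) in each of the 5 libraries, genes ordered by their mean. Acta2 was highest and Lmod1 lowest in every library, and for Actg2 and Cnn1 the library of control mouse 2 (52.7 and 41.2 TPM) stood apart from the other 4.

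The order of the levels was led by Acta2, with a mean of 234 TPM over the 5 libraries, followed by Mylk at 136, Tagln at 67.2, Smtn at 56.9, Des at 51.3, Myh11 at 44.5, Actg2 at 26.4, Cnn1 at 21.4, Synm at 19.7 and Lmod1 at 8.40 TPM. Acta2 lay above Mylk, Mylk above Tagln and Synm above Lmod1 in 5 of 5 libraries, with no overlap of their ranges. All neighbours from Tagln down to Synm overlapped in range. Des and Myh11, for example, kept that order in 3 of 5 libraries, and Cnn1 lay above Synm in 2 of 5. Acta2 ranked between 372nd and 609th among all listed genes, and Lmod1 between 9097th and 11365th. The non-muscle actin Actb, by contrast, was at 4546 to 6093 TPM, so that Acta2 came to between 0.034 and 0.050 of the Actb level per library.

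Acta2 encodes smooth muscle alpha-actin, the main actin of smooth muscle filaments. The gene lies at chr19:34241090-34255590 on the minus strand (GENCODE M21, GRCm38). The values were 279 and 171 TPM for control mice 2 and 3, and 228, 264 and 227 TPM for knockout mice 1, 2 and 3. All 3 knockout mice lay between the controls. The log2 fold change from limma, on the log2(TPM + 1) scale and given here as fit ± standard error, was 0.13 ± 0.24 (adjusted p 0.810), and its 95% interval ran from -0.43 to 0.69. Without control mouse 3 it was -0.22 and without control mouse 2 0.48.

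Actg2 encodes smooth muscle gamma-actin, the actin typical of visceral muscle, at chr6:83512905-83536265 on the minus strand. In control mice 2 and 3 its level stood at 52.7 and 22.1 TPM, and knockout mice 1, 2 and 3 had 16.5, 21.8 and 19.1 TPM. The groups did not overlap, but the level in control mouse 3 was close to that in knockout mouse 2, and between the controls the difference was 2.39-fold. Its fit gave -0.81 ± 0.35 (limma, adjusted p 0.374, exact permutation p 0.1, the smallest that 2 against 3 libraries allow), with an interval of -1.65 to 0.02. It was -0.20 without control mouse 2 and -1.42 without control mouse 3. Because actin genes are near-copies, the longest annotated coding transcripts were compared: Acta2 and Actg2 shared no stretch of 50 bases, and 0.35% of the 50-base stretches of Acta2 occurred in the non-muscle actin Actg1. The read length is not given in the sources used here, and near-matches with mismatches were not searched.

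Myh11 encodes smooth muscle myosin heavy chain, the motor of contraction and a marker of mature smooth muscle cells, at chr16:14194535-14291372 on the minus strand. Levels of 48.2 and 30.7 TPM were measured for control mice 2 and 3, compared with 54.1, 42.0 and 47.5 TPM for knockout mice 1, 2 and 3. The lowest library was control mouse 3 and the highest knockout mouse 1, with overlap between the groups. By the fit the change was 0.30 ± 0.23 (limma, adjusted p 0.561), and it was -0.018 without control mouse 3 and 0.62 without control mouse 2. Of the 50-base stretches of Myh11, 0.40% occurred in the non-muscle myosins Myh9 or Myh10.

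Mylk encodes myosin light chain kinase, which starts contraction, along with shorter products of the same gene, at chr16:34745210-35002420 on the plus strand. Control mice 2 and 3 had 134 and 130 TPM, against 137, 147 and 133 TPM in knockout mice 1, 2 and 3. It was the steadiest of the 10 genes, with a ratio of 1.13 between the highest and the lowest library. On the log2 scale the fit returned 0.069 ± 0.15 (limma, adjusted p 0.839) and an interval of -0.29 to 0.42. With single libraries left out it lay between 0.029 and 0.098, and its sign was negative after quantile normalization (-0.053). Exons of E130310I04Rik and Gm21691, on the opposite strand, cover 4.87% and 1.99% of its exonic bases, and Gm21691 is not among the listed genes.

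Tagln encodes transgelin (SM22 alpha), an actin-binding protein induced early in smooth muscle differentiation, at chr9:45929619-45936058 on the minus strand. The values were 63.6 and 66.7 TPM for control mice 2 and 3, and 86.8, 49.8 and 69.0 TPM for knockout mice 1, 2 and 3. The controls lay between the knockout mice, and the fitted change was 0.036 ± 0.24 (limma, adjusted p 0.949). It turned negative after quantile normalization (-0.096), without Rpph1 and Rn45s, a pair of abundant non-coding RNAs (-0.023), with libraries weighted by their spread (-0.18) and without knockout mouse 1 (-0.15), and was 0.25 without knockout mouse 2. The antisense gene Gm48529 covers 62.4% of the exonic bases of Tagln and Pcsk7 5.43%, both on the opposite strand. Gm48529 is not among the listed genes, so its level is unknown, and Pcsk7 was at 11.6 to 15.9 TPM. The kit does not mark strand, so reads of overlapping genes cannot be told apart.

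Cnn1 encodes calponin 1, an actin-binding protein that restrains the myosin ATPase and is typical of differentiated smooth muscle, at chr9:22099216-22109630 on the plus strand. In control mice 2 and 3 its level stood at 41.2 and 18.6 TPM, and knockout mice 1, 2 and 3 had 14.9, 12.0 and 20.2 TPM. Control mouse 2 stood above all other libraries, while control mouse 3 lay below knockout mouse 3. The controls differed 2.21-fold, and its fit gave -0.82 ± 0.36 (limma, adjusted p 0.383), with an interval of -1.68 to 0.04. It was -0.26 without control mouse 2 and -1.37 without control mouse 3.

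Smtn encodes smoothelin, a cytoskeletal protein of contractile smooth muscle cells, at chr11:3517523-3540612 on the minus strand. Levels of 77.5 and 59.2 TPM were measured for control mice 2 and 3, compared with 54.5, 46.3 and 47.1 TPM for knockout mice 1, 2 and 3. All 3 knockout mice lay below both controls. By the fit the change was -0.46 ± 0.19 (limma, adjusted p 0.356, exact permutation p 0.1), with an interval of -0.89 to -0.02 before adjustment over genes, and it was -0.26 without control mouse 2 and -0.65 without control mouse 3. Exons of Gm11946 and Gm11947, on the opposite strand, cover 16.3% and 0.89% of the exonic bases of Smtn. Neither is among the listed genes.

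Lmod1 encodes leiomodin 1, which nucleates actin filaments in smooth muscle, at chr1:135324807-135368065 on the plus strand. Control mice 2 and 3 had 7.33 and 7.69 TPM, against 11.5, 8.66 and 6.84 TPM in knockout mice 1, 2 and 3. Knockout mouse 1 was highest and knockout mouse 3 lowest, on either side of the controls. On the log2 scale the fit returned 0.21 ± 0.25 (limma, adjusted p 0.712), and it was 0.032 without knockout mouse 1 and 0.37 without knockout mouse 3.

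The remaining pair of genes encodes intermediate filament proteins. Des encodes desmin, the muscle intermediate filament, at chr1:75360329-75368579 on the plus strand. The values were 65.8 and 57.1 TPM for control mice 2 and 3, and 68.0, 34.7 and 31.0 TPM for knockout mice 1, 2 and 3. Knockout mouse 1, the library with the lowest Esr1, lay above both controls, whereas knockout mice 2 and 3 lay below both. The fitted change was -0.54 ± 0.33 (limma, adjusted p 0.489). Without knockout mouse 1 it was -0.88 with a standard error of 0.14 and passed the threshold (limma, adjusted p 0.0262), as 2.63% of all tested genes did as lower. Without knockout mouse 2 or 3 it was -0.41 or -0.33 (limma, adjusted p 0.716 and 0.834). Over all 16 alternatives the adjusted p of Des ran from 0.0155 to 0.937. Knockout mice 2 and 3 are the libraries with the high epithelial markers. In them 9 of 9 genes on the immediate early list, which includes heat shock genes, also lay below both controls. That list summed to 7420 and 6039 TPM there, against 11328 to 12222 TPM in the other 3 libraries. The heat shock gene Hspa1b alone had 1948 and 1771 TPM there, and 3371 to 3642 TPM in the other 3. Also below both controls there were 7 of 10 fibroblast genes (summed level 15273 and 18105 TPM there, 21099 TPM in knockout mouse 1, and 29316 and 23332 TPM in the controls). Of these 10 fibroblast genes, 1, Pi16, lay above both controls there (164 and 267 TPM, against 79.6 and 57.4 TPM in the controls). Among all tested genes 27.9% lay below and 34.8% above both controls in these 2 libraries. The part of these genes in the Des result was not tested. The antisense gene Gm15179, at 0.20 to 11.7 TPM, shares 5.86% of the exonic bases of Des.

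Synm encodes synemin, a large intermediate filament protein that co-assembles with desmin or vimentin, at chr7:67730160-67759742 on the minus strand. In control mice 2 and 3 its level stood at 16.9 and 13.5 TPM, and knockout mice 1, 2 and 3 had 19.2, 26.6 and 22.4 TPM. All 3 knockout mice lay above both controls. Its fit gave 0.55 ± 0.21 (limma, adjusted p 0.344, exact permutation p 0.1), with an interval of 0.05 to 1.05 before adjustment, and without knockout mouse 1 it was 0.66 (adjusted p 0.0774, with a range of 0.0560 to 0.937 over all alternatives). Exons of Gm45102 and Ttc23, on the opposite strand, cover 5.37% and 1.06% of its exonic bases, and Gm45102 is not among the listed genes. The ratio of Synm to Des, a comparison made after the values were seen, was 0.257 and 0.235 in control mice 2 and 3, 0.283 in knockout mouse 1, and 0.766 and 0.724 in knockout mice 2 and 3. Des relative to Vim, the mesenchymal intermediate filament gene, was 0.049 and 0.054 in the controls, 0.059 in knockout mouse 1, and 0.027 and 0.022 in knockout mice 2 and 3, while Vim itself was at 1066 to 1382 TPM and overlapped between the groups.

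**Figure D2:**
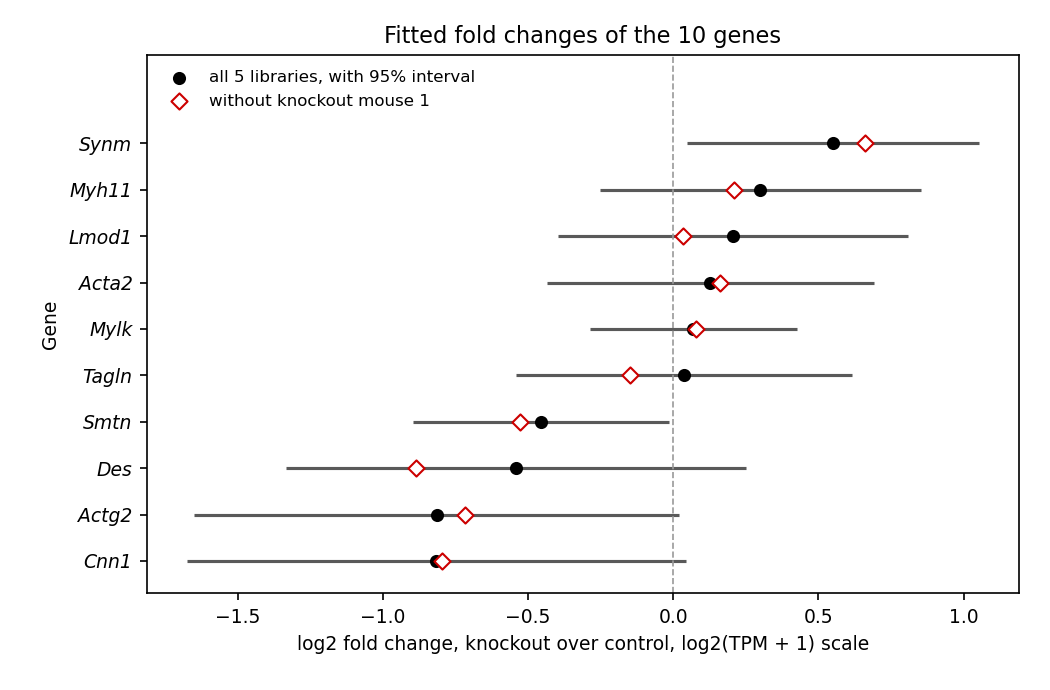
Fitted log2 fold change of each gene, knockout over control, on the log2(TPM + 1) scale: filled points and 95% intervals from all 5 libraries, open diamonds without knockout mouse 1. Only the intervals of Synm (0.05 to 1.05) and Smtn (-0.89 to -0.02) leave out 0, before adjustment over genes, and Des moves from -0.54 to -0.88.

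Across the 10 genes, the 3 whose groups did not overlap were Synm (higher) and Smtn and Actg2 (lower). Among all tested genes 11.9% were above and 21.9% below both controls in the 3 knockout mice, so 1 and 2 of 10 are near the background. As a description, the median absolute log2 difference between control mice 2 and 3 was 0.35 for the 10 genes and 0.17 for the 10370 other genes within the same range of mean TPM. Actg2 (2.39-fold), Cnn1 (2.21-fold), Acta2 (1.63-fold) and Myh11 (1.57-fold) were higher in control mouse 2 by the widest margins, while the ratio of control mouse 2 to control mouse 3 was 0.954 for Tagln, 0.953 for Lmod1 and 1.03 for Mylk. The range among the 3 knockout mice had a median of 0.41 on the log2 scale, against 0.45 for the other genes of that range.

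**Figure D3:**
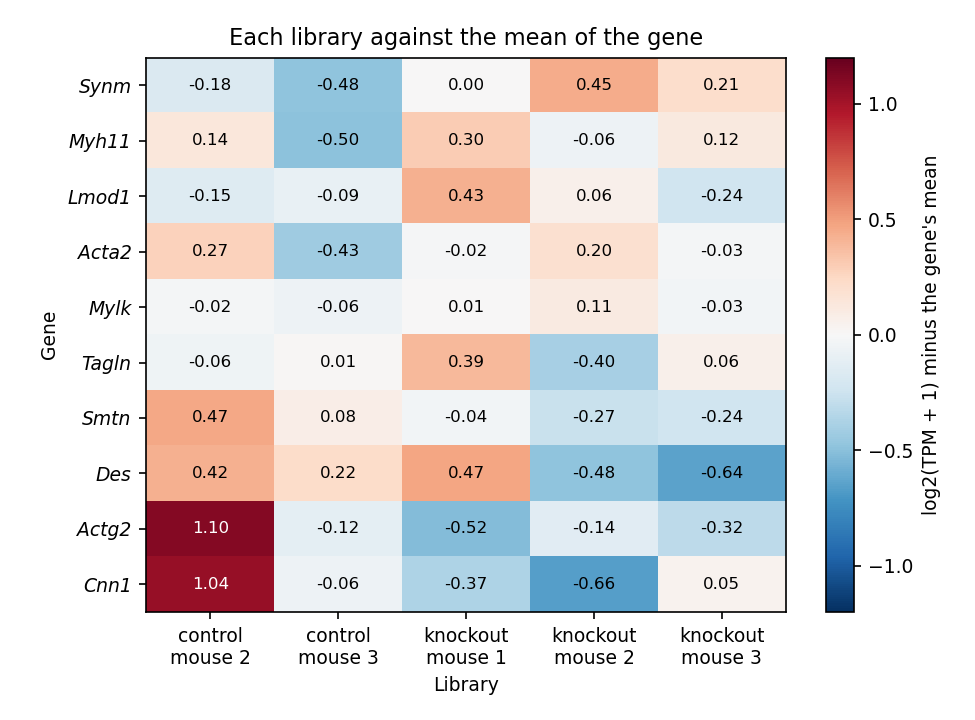
Log2(TPM + 1) of each gene in each library minus the mean of that gene over the 5 libraries, from red (above) to blue (below). Actg2 and Cnn1 stand at 1.10 and 1.04 in control mouse 2, and Des is at 0.47 in knockout mouse 1 and at -0.48 and -0.64 in knockout mice 2 and 3.

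Averaged over the 10 genes, the centred profile stood at 0.30 and -0.14 for control mice 2 and 3, and at 0.066, -0.12 and -0.11 for knockout mice 1, 2 and 3. Among 12598 other genes with a mean of at least 5 TPM, the profiles nearest to it over the 5 libraries were those of Pkd2, Nckipsd, Cdc7 and Ell, with root mean square differences of 0.016, 0.028, 0.037 and 0.041 on the log2 scale. These were picked as the nearest, so their distances are no reference for those of the 10 genes, each of which is also part of the mean. The 10 genes lay between 0.16 (Smtn) and 0.46 (Cnn1) from it. Of the other genes, 7.68% were nearer than Smtn, 13.3% nearer than Mylk and 16.5% nearer than Acta2, but 79.0% were nearer than Actg2 and 79.9% nearer than Cnn1.

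Windows before the RefSeq start sites (GRCm38.p6) were searched for the CArG box because it is the known element of this gene class. A window of 250 bases was listed for 7 of the 10 genes, Acta2, Cnn1, Des, Lmod1, Mylk, Smtn and Synm. Actg2, Myh11 and Tagln had no entry. The windows of Mylk (chr16:34784700-34784949) and Smtn (chr11:3539293-3539542) lie within the GENCODE bounds of these genes. Those of Acta2, Cnn1 and Lmod1 do so in part, and start sites further upstream were not searched. An exact CArG box was in 0 of these 7 windows and in 1.47% of all 32851 windows. With at most 1 mismatch, 3 of 7 windows (42.9%) held a match, against 18.6% of all windows. The motif reads the same on both strands, and matches may overlap. The 3 windows are printed because they hold those matches, with each match in capitals: Acta2 at chr19:34255374-34255623 (minus strand), Lmod1 at chr1:135324563-135324812 (plus strand) and Synm at chr7:67759743-67759992 (minus strand), each ending at the base before the start site.
Acta2: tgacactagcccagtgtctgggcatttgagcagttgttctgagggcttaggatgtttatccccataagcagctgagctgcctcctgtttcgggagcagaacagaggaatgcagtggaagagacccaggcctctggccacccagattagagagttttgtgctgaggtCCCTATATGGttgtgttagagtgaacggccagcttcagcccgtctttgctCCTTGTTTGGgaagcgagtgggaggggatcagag
Lmod1: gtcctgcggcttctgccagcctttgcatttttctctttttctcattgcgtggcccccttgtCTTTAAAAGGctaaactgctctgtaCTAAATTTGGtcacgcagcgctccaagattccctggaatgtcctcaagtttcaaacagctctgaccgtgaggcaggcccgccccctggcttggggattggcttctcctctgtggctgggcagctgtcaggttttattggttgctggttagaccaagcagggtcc
Synm: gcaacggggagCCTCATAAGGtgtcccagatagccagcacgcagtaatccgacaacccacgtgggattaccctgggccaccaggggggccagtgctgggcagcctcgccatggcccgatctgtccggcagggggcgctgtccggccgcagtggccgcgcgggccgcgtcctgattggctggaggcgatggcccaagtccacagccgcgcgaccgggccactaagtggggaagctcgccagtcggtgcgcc
The matches of Acta2 begin at positions -84 and -34 from the start site, those of Lmod1 at -189 and -164, and that of Synm at -239. They describe the sequence only. The 3 genes had different profiles over the libraries: Synm lay above both controls in all 3 knockout mice, while Acta2 and Lmod1 overlapped between the groups.

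Regulators of the contractile genes were taken from a list of 12, all tested, of which 0 passed the threshold in either direction (median log2 fold change 0.065). Of these 12 genes, 5 lay above and 3 below both controls in all 3 knockout mice, where 11.9% and 21.9% of all tested genes did. Myocd, the gene of myocardin, had the most positive fold change among list members with a mean of at least 5 TPM. Levels of 3.82 and 3.66 TPM were measured for control mice 2 and 3, compared with 7.87, 20.9 and 13.2 TPM for knockout mice 1, 2 and 3. All 3 knockout mice lay above both controls, with 5.72-fold between the highest and the lowest library. By the fit the change was 1.57 ± 0.38 (limma, adjusted p 0.198). With single libraries left out in turn it lay between 1.24 and 1.90, with adjusted p from 0.0215, without knockout mouse 1, to 0.793, without control mouse 3 where 1 control is left.

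Srf, the gene of serum response factor, was picked for mention once its values were known. It had 36.7 and 37.7 TPM in the controls and 34.1 to 41.2 TPM in the knockout mice, and overlapped between the groups. Without knockout mouse 1, 2 of the 12 regulators passed as higher (Myocd and Fhl2) and 2 as lower (Klf4 and Gata6), against 5.35% and 2.63% of all tested genes in that fit, Fhl2 being named here for that call after its values were seen. Klf4, a transcription factor known to restrain smooth muscle differentiation, was at 287 ± 0.686 TPM in the controls (SD, n = 2) and 180 ± 43.8 TPM in the knockout mice (SD, n = 3). It lay below both controls in all 3, with a log2 fold change of -0.70 (limma, adjusted p 0.286). Klf4 is also an early response gene, and 8 of 9 genes on the immediate early list, which includes heat shock genes, had negative fold changes. Among all 19292 tested genes, 10071 had negative fold changes. In knockout mouse 1 the immediate early list summed to 11630 TPM, between the controls (11328 and 12222 TPM), while Klf4 was at 230 TPM. Of the list, 3 lay below both controls in all 3 knockout mice (21.9% of all tested genes). The part of these genes in the Klf4 value was not tested. Gata6, a transcription factor of mesenchymal and vascular muscle cells, had 87.6 and 83.5 TPM in the controls and 54.3 to 63.2 TPM in the knockout mice (log2 fold change -0.53, limma, adjusted p 0.258). Smad3, which transmits TGF-beta signals, had 42.9 and 43.4 TPM in the controls and 43.5 to 50.6 TPM in the knockout mice (log2 fold change 0.14, limma, adjusted p 0.688).

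Other genes of the contractile apparatus, a list of 20, were all tested, and 0 passed in either direction, with 10 positive and 10 negative fold changes and a median of -0.057. Of these 20 genes, 3 lay above and 7 below both controls in every knockout mouse, where 11.9% and 21.9% of all tested genes did. The most negative was Synpo2, the gene of synaptopodin 2, an actin-bundling protein of smooth and striated muscle. Control mice 2 and 3 had 35.5 and 19.5 TPM, against 12.4, 11.3 and 10.1 TPM in knockout mice 1, 2 and 3. As for Actg2 and Cnn1, control mouse 2 was the highest library, and here both controls lay above all knockout mice (log2 fold change -1.16, standard error 0.27, limma, adjusted p 0.197). The value was -0.75 without control mouse 2 and -1.58 without control mouse 3. Without knockout mouse 1, 2 of the 20 passed as higher (Tpm1 and Cnn3) and 1 as lower (Pdlim3), near the 5.35% and 2.63% of all tested genes. Of these, Tpm1 and Pdlim3 are named for that call after their values were seen.

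The most positive of that list was Cnn3, the calponin of non-muscle cells, which had 207 and 222 TPM in control mice 2 and 3. Knockout mice 1, 2 and 3 had 260, 301 and 329 TPM, a change of 0.46 ± 0.18 (limma, adjusted p 0.343). It thus lay above both controls in all 3 knockout mice, where Cnn1 overlapped between the groups. The most abundant members were Myl6, a myosin light chain (512 to 791 TPM), Csrp1, an actin-associated LIM protein (254 to 490 TPM), and Tpm4, a tropomyosin of non-muscle cells (250 to 350 TPM), with log2 fold changes of 0.28, 0.12 and -0.33 (limma, adjusted p 0.561, 0.847 and 0.427).

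Contraction signalling was covered by 13 genes, of which 0 passed (median log2 fold change 0.12). Below both controls in all knockout mice were 3 of them, near the 21.9% of all tested genes. Cacna1c, the pore subunit of the L-type calcium channel through which calcium enters smooth muscle, had the most negative value. The values were 21.9 and 15.3 TPM for control mice 2 and 3, and 6.75, 6.89 and 6.74 TPM for knockout mice 1, 2 and 3. The knockout mice were nearly equal to each other and all below the controls (log2 fold change -1.31, standard error 0.22, limma, adjusted p 0.130). Without knockout mouse 1 it passed the threshold (-1.30, adjusted p 0.0297), and the adjusted p ran up to 0.749 when other single libraries were left out. It was the 1 gene of the 13 that passed in that fit, where 2.63% of all tested genes passed as lower. Kcnmb1, a subunit of the calcium-activated potassium channel of smooth muscle, had 3.93 and 4.63 TPM in the controls and 4.10, 7.05 and 6.43 TPM in the knockout mice (log2 fold change 0.35, limma, adjusted p 0.565). Ppp1r14a, an inhibitor of myosin phosphatase, was at 110 to 187 TPM with overlap between the groups, and Rhoa, a small GTPase that promotes contraction, was at 363 to 469 TPM, also with overlap.

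**Figure D4:**
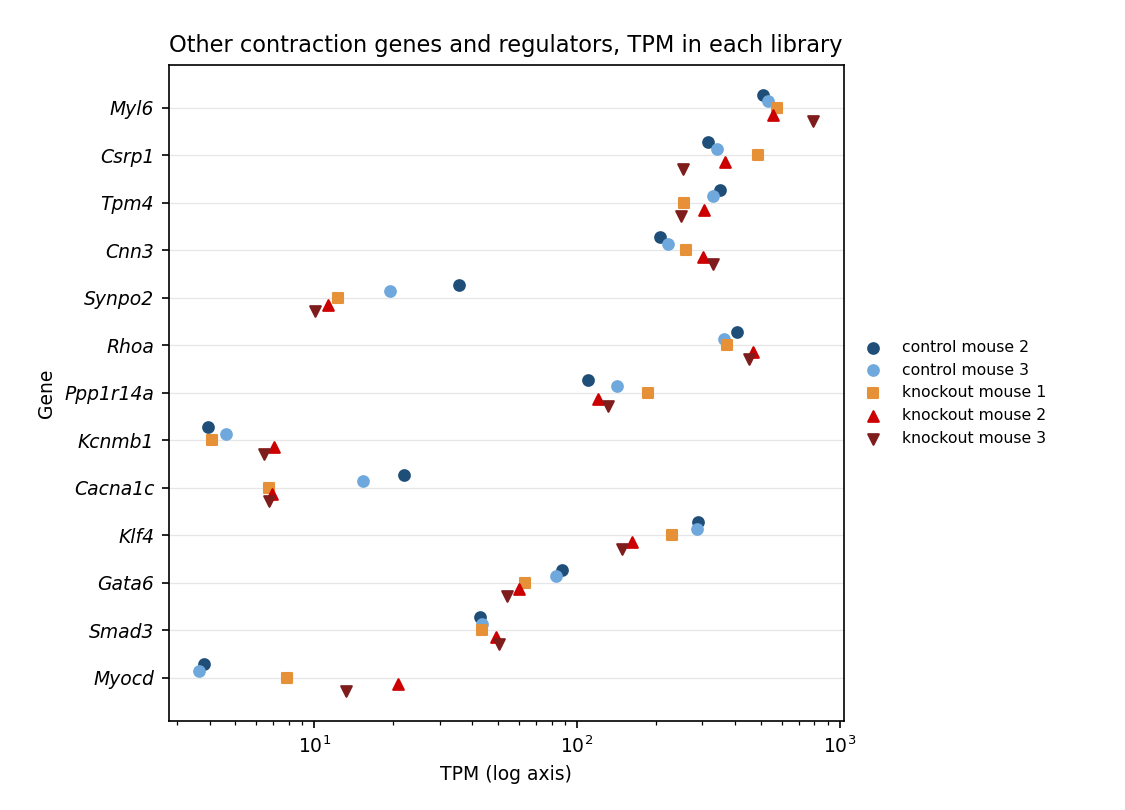
Level (TPM, log axis) in each of the 5 libraries of genes named by rule from the lists of other contractile apparatus, contraction signalling and regulators. Cacna1c (6.74 to 6.89 TPM in the knockout mice, 15.3 and 21.9 TPM in the controls) and Synpo2 lie lower, and Myocd (7.87 to 20.9 against 3.66 and 3.82 TPM) higher, in all 3 knockout mice, and none of these passed the threshold in the fit to all 5 libraries.

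Lists for other cell types, mural cells among them, were read beside these results. The list of pericyte and vascular mural genes summed to 236 and 256 TPM in control mice 2 and 3 and 203 to 213 TPM in the knockout mice, with 5 of 10 below and 0 above both controls in all 3 (21.9% and 11.9% of all tested genes), and 0 passing the threshold. Pdgfrb, the receptor that marks mural cells and many fibroblasts, was at 70.5 to 95.2 TPM, and Rgs5, a pericyte gene, at 43.7 and 41.2 TPM in the controls and 33.4, 39.4 and 23.2 TPM in the knockout mice. Endothelial genes summed to 246 and 265 TPM in the controls and 173 to 277 TPM in the knockout mice, and immune genes to 1919 and 2497 TPM and 673 to 1473 TPM. Below both controls in all 3 knockout mice were 1 of 8 endothelial and 6 of 8 immune genes, against 21.9% of all tested genes. Of the mesothelial genes, 6 of 7 were listed, 4 of them below and 1 (Wt1) above both controls in all 3 (21.9% and 11.9% of all tested genes), and 0 passed the threshold. Msln, which marks mesothelium, had 123 and 99.6 TPM in the controls and 30.4, 45.2 and 44.4 TPM in the knockout mice (log2 fold change -1.47, limma, adjusted p 0.117). In the fit without knockout mouse 1, 4 of the 6 passed as lower and 1 as higher (2.63% and 5.35% of all tested genes). The sum over these genes overlapped between the groups (917 and 779 TPM, and 464 to 1014 TPM), but it holds Krt19, also an epithelial marker. The 5 genes in no other list summed to 649 and 551 TPM in the controls and 329, 445 and 468 TPM in the knockout mice, with no overlap. Striated muscle genes summed to 47.7 and 47.3 TPM in the controls and 25.7 to 35.8 TPM in the knockout mice. Tnnt3 was the most abundant of them (7.77 to 22.3 TPM), and 5 of 11 tested genes lay below both controls in all 3 (21.9% of all tested genes). For the 7 non-muscle actin and myosin genes the median fold change was 0.092 (log2), with 0 past the threshold. The part of these cell types, and of the epithelial markers, in the levels of the contractile genes and their regulators was not tested.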

How the data were processed

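The deposited values are TPM per gene, summing to 1000000 in each library. The authors' table name says STAR was used for alignment, and the submitters' processing notes give the mm10 genome build. The counter, annotation and filters are not given in the sources used here. Per the labels' protocols, RNA was prepared with a Zymo kit and libraries with a Takara SMARTer low-input mRNA kit.

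Here log2(TPM + 1) was fitted with limma 3.58.1 in R 4.3.3 (eBayes with trend, genotype as the only term) over genes with at least 1 TPM in at least 2 libraries. P-values were two-sided and adjusted by the Benjamini-Hochberg method over all tested genes, with a threshold of 0.05. For single genes all 10 ways to assign the libraries were enumerated as an exact permutation test. The fit was also run on simulated data with known changes. In these, every gene varied independently, with no shift shared by many genes of a library, so they do not measure how the fit performs here. Each library is 1 mouse, and no batch is given in the labels.

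The 10 genes and all lists were chosen with earlier results of these data known. Genes named from other lists are among the members past the threshold, the 3 of highest mean TPM, and those of most positive and most negative fold change with a mean of at least 5 TPM, or are said to be chosen later. Some genes that this rule names are not reported here. Gene positions are from GENCODE M21 (GRCm38) and windows from RefSeq (GRCm38.p6). Protein sequences were not used here, so paralogs were compared by transcript. The scaling, filter, pseudocount, variance model, library weights, replicate block and each library left out were varied.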

Additional observations from a re-analysis of the deposited data

How the results depend on the processing

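The count of genes past the threshold, 0 higher and 0 lower of 10, was the same under every alternative for higher genes. For lower genes it was 1, Des, with the replicate block and without knockout mouse 1, so that leaving out the libraries in turn gave 0 to 1, and it was 0 under all others, an adjusted p under 0.1 included. With the block the value for Des was -0.88 (limma, adjusted p 0.0155), in a fit that called 1165 genes higher and 693 lower (3.59% of 19292), against 5 genes in all without it. Without knockout mouse 1 the calls over all genes were 1022 and 502, and with library weights 260 and 396. The block uses the mouse number, and since mouse 1 has no partner it rests on mice 2 and 3. Deviations of same-numbered libraries from their group means had Pearson correlations over genes of -0.06 and -0.07 for numbers 2 and 3. With 2 controls the deviations of 1 mirror those of the other, so these values are not separate. They cannot decide whether same-numbered mice were paired, and the labels give only the number.

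The median log2 fold change of 0.053 lay between -0.12 and 0.056 when single libraries were left out, and at -0.074 after quantile normalization, -0.0074 without Rpph1 and Rn45s and -0.039 with library weights. For the single genes, 150 of 160 alternative values had the same sign and the same call, 2 were stronger (both Des) and 8 changed sign. The sign changes were those of Tagln (-0.096 with quantile normalization, -0.023 without Rpph1 and Rn45s, -0.18 with library weights, -0.15 with the replicate block, and -0.15 to 0.25 over the fits without 1 library), Mylk (-0.053 with quantile normalization), Acta2 (-0.22 to 0.48 over those fits) and Myh11 (-0.018 to 0.62). Cnn1 and Actg2 kept their sign but fell to -0.26 and -0.20 without control mouse 2. In fits without a control mouse, the lone control is assumed to vary like the other group. With 2 controls that differ by over 2-fold in Actg2 and Cnn1, the number of mice limits precision, and depth is unknown.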
